A study of Danio rerio with 12 samples.

Results

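Transcripts of f13a1b and plaua were measured in the ventricle apex of adult zebrafish with and without TCDD and with and without amputation of the heart. The gene f13a1b encodes an A subunit of coagulation factor XIII, and plaua encodes a zebrafish urokinase, a plasminogen activator. Both were chosen by gene symbol, from measured values of these same arrays. They are 2 of 8793 genes with a named probe set, and hold 4 of the 15502 probe sets tested: 3 for f13a1b (Entrez gene 561287) and 1 for plaua (Entrez gene 100008445). Because the choice used the levels in all 6 groups, the levels of f13a1b and plaua are a description and carry no test. The other clotting genes of the list were tested. That list and the lists of cell type markers were also chosen with earlier results of these data known, so their p-values are not independent of them.

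A wound clots when thrombin turns soluble fibrinogen into fibrin. Factor XIII is a transglutaminase: its A subunit joins fibrin strands through covalent bonds and so stiffens the clot and slows its removal. In mammals this subunit is made by platelets, monocytes and macrophages, and it also acts on matrix proteins. Clots are removed by plasmin, which is cut from plasminogen by tissue-type and urokinase-type activators, and serpins limit both steps. Urokinase acts at cell surfaces and in mammals is known from migrating cells, including epidermal cells at wound edges. In zebrafish a fibrin clot covers the cut ventricle before muscle grows back.

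The fish were adults of the AB strain. Per the labels' protocols they received vehicle or TCDD at 70 ng/g by intraperitoneal injection 1 day before surgery; the sample labels list the controls as untreated. TCDD (2,3,7,8-tetrachlorodibenzo-p-dioxin) is a ligand of the aryl hydrocarbon receptor. The groups were control 0 hpa (vehicle, not amputated), control 6 hpa (vehicle, 6 hours after amputation), control 7 dpa (vehicle, 7 days after amputation), and TCDD 0 hpa, TCDD 6 hpa and TCDD 7 dpa at the same stages. The piece taken was the apex, which in amputated hearts carries the amputation plane and any regenerate. At 0 hpa it was intact. Each group had 2 arrays, and each array held RNA of 10 pooled apices. Errors therefore measure the spread between pools, not between fish, and their precision is limited by the small number of arrays. Fewer cells of a type and less RNA per cell cannot be told apart in such bulk samples.

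The labels were checked on cyp1a, the main target of the aryl hydrocarbon receptor, which was at a log2 level of 2.71 to 3.64 on the 6 control arrays and at 9.38 to 12.18 on the 6 TCDD arrays. Cardiac muscle markers were bright on every array, with a summed intensity of 18721 to 32824 over 6 of the 8 listed genes. Replicate arrays correlated at 0.958 to 0.979 across probe sets, except at TCDD 6 hpa, where the correlation was 0.901. Replicate 1 of TCDD 6 hpa stood apart: 461 of its probe sets were lower than on every other array by over 1 log2 unit, and 202 were higher. The labelling control DapX-3 was at 5.67 to 6.61 on the 4 arrays of 7 dpa and at 2.97 to 3.99 on the other 8, so the late time point and this difference cannot be told apart.

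The level of f13a1b was highest at 7 days after amputation without TCDD. Its first probe set, the one with the highest mean, was at an intensity of 460 and 333 in the control 7 dpa arrays, against 120 and 127 in unamputated controls and 154 and 134 at TCDD 7 dpa. On the log2 scale, used from here on, control 0 hpa was at 6.91 and 6.99, control 6 hpa at 7.37 and 7.67 and control 7 dpa at 8.84 and 8.38. With TCDD the same probe set was at 6.57 and 6.62 at 0 hpa, 7.19 and 7.19 at 6 hpa, and 7.27 and 7.06 at 7 dpa. Both control 7 dpa arrays lay above all 10 others, and both TCDD 0 hpa arrays lay below all others. The share of all probe sets with a group set apart in this way was not counted. This probe set ranked between the 89.8th and the 97.4th percentile of its array throughout.

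**Figure D1:**
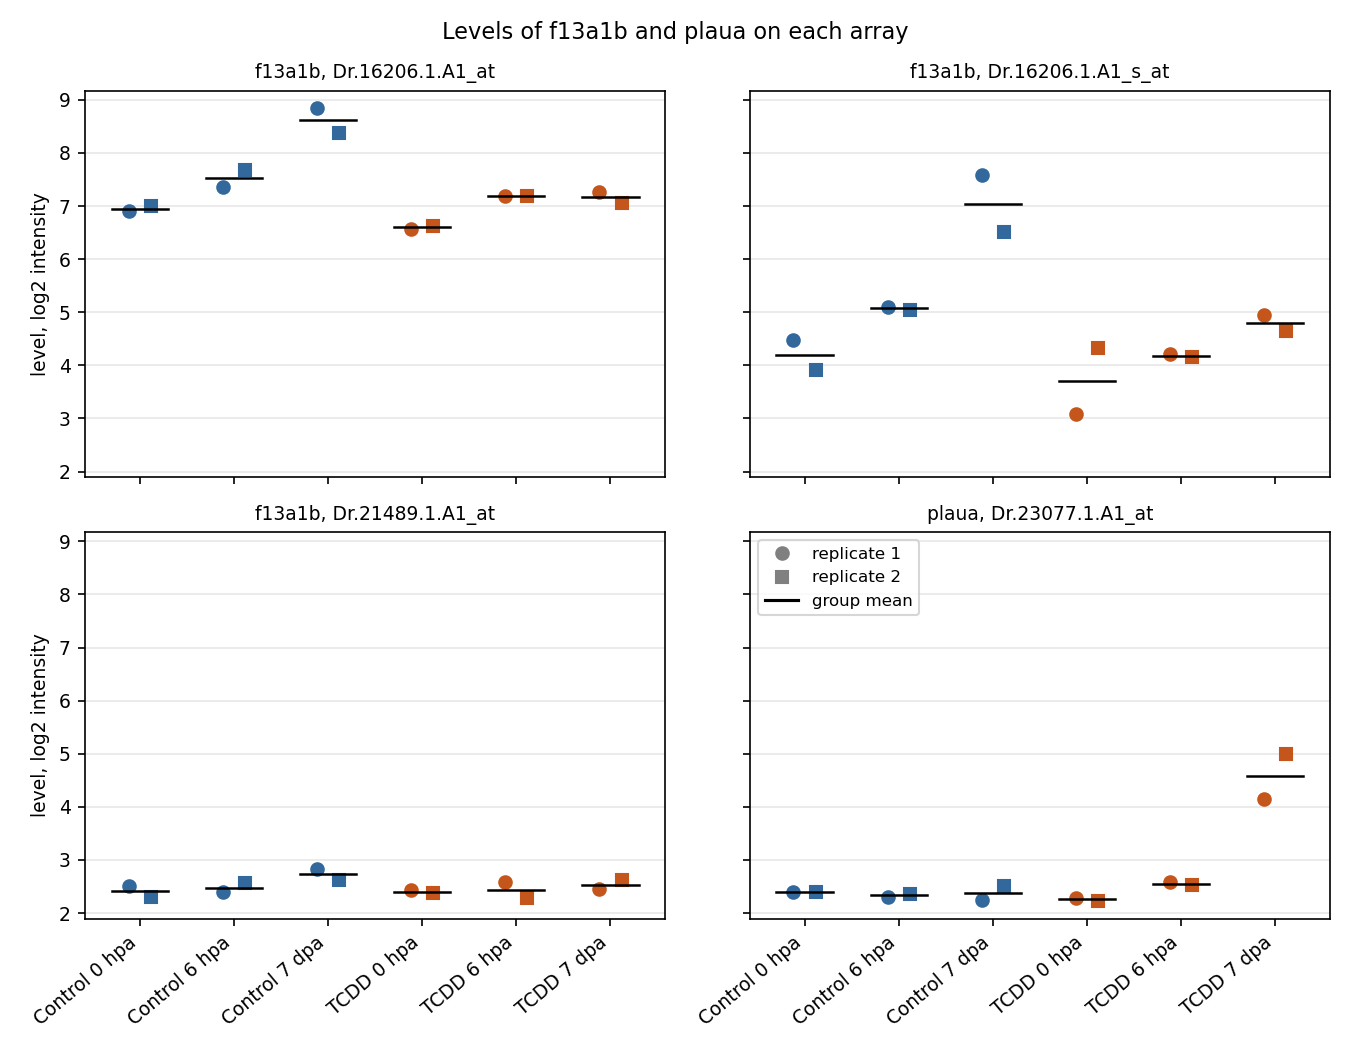
Log2 intensity of the 3 f13a1b probe sets and of the plaua probe set on each of the 12 arrays, by group (circles are replicate 1, squares replicate 2, black lines group means; control arrays in blue, TCDD arrays in orange). The control 7 dpa arrays stand highest for both f13a1b probe sets in the upper row, the third f13a1b probe set stays between 2.28 and 2.84, and plaua leaves its low level at TCDD 7 dpa alone.

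In control fish the f13a1b mean went from 6.95 ± 0.06 (SD, n = 2 for each group here) at 0 hpa to 7.52 ± 0.21 at 6 hpa and 8.61 ± 0.33 at 7 dpa. The 7 dpa mean was 1.66 ± 0.19 above the unamputated level (difference ± limma's standard error), a 3.17-fold difference. It was also 1.09 above the level at 6 hpa. In TCDD fish the mean went from 6.60 ± 0.03 at 0 hpa to 7.19 at 6 hpa, where the arrays differed by less than 0.01, and 7.16 ± 0.15 at 7 dpa. The difference from 0 hpa was thus 0.60 at 6 hpa and 0.57 at 7 dpa, 1.48-fold at the later time, and the 6 hpa and 7 dpa arrays of TCDD fish overlapped.

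Set side by side at the same stage, f13a1b was lower with TCDD at each of the 3 times on this probe set, and the arrays of the compared groups did not overlap at any of them. The difference was −0.35 ± 0.19 without amputation, −0.33 at 6 hpa and −1.45 at 7 dpa, where TCDD hearts had a 2.73-fold lower level. Lack of overlap says little by itself: with 2 arrays against 2 the smallest p of an exact permutation test is 0.333. The share of all probe sets without overlap was not counted. The 6 hpa difference turned to 0.11 under quantile normalization, which also raised the TCDD 6 hpa level over TCDD 0 hpa to 1.19 and put TCDD 7 dpa 0.67 below TCDD 6 hpa (−0.67), so the place of TCDD 6 hpa in the order depends on the scaling. Without replicate 1 of TCDD 6 hpa the 6 hpa difference was −0.33 as before. The 7 dpa difference from 0 hpa was smaller with TCDD than without, by a difference of the differences of −1.10 ± 0.27. At 6 hpa that value was 0.03, and 0.47 under quantile normalization.

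In order of level, control 7 dpa came first, then control 6 hpa, TCDD 6 hpa, TCDD 7 dpa, control 0 hpa and TCDD 0 hpa. Neighbours in that order were separated on their arrays except TCDD 6 hpa and TCDD 7 dpa, which overlapped. How common such separation is among all probe sets was not counted. The first gap was 1.09, with a standard error of 0.19, and the others were at most 0.35.

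The second probe set of f13a1b was also highest at control 7 dpa, with wider differences there. It was at 4.48 and 3.92 at control 0 hpa, 5.10 and 5.04 at control 6 hpa, and 7.59 and 6.51 at control 7 dpa. In TCDD fish it was at 3.08 and 4.33 at 0 hpa, 4.21 and 4.16 at 6 hpa, and 4.94 and 4.65 at 7 dpa. Control 7 dpa was again above all other arrays, while TCDD 0 hpa and control 0 hpa overlapped. The 7 dpa level exceeded the unamputated level by 2.85 ± 0.44 in controls, 7.21-fold, and by 1.09 in TCDD fish, 2.13-fold. The TCDD value was 0.47 without TCDD 0 hpa replicate 1 and 1.71 without its replicate 2. At 7 dpa TCDD hearts were 4.76-fold lower than controls, a difference of −2.25 ± 0.44. TCDD 6 hpa was 0.48 above TCDD 0 hpa on this probe set, with overlapping arrays, and −0.14 from it without TCDD 0 hpa replicate 1. Unlike on the first probe set, the TCDD 7 dpa mean lay above that of TCDD 6 hpa, by 0.61 ± 0.44. These arrays did not overlap, but the share of all probe sets without overlap was not counted. The order of the groups with TCDD thus differs between the probe sets, and the gaps below control 6 hpa were at most 0.60.

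The suffix of its name (_s_at) marks probes that can match more than 1 transcript. The first and second probe sets come from the same transcript cluster and correlated at 0.95 over the 12 arrays, which share their group structure. The third was at 2.28 to 2.84 on every array, between the 1.91th and the 34.1th percentile. Its highest value was on control 7 dpa replicate 1, where the other probe sets were highest too. The 7 dpa difference on it was 0.32 ± 0.18 in controls and 0.14 in TCDD fish. The tables carry no detection calls, so levels this low are not shown to be above background.

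The pattern of plaua was of another kind. It was at 2.39 and 2.40 at control 0 hpa, 2.31 and 2.35 at control 6 hpa and 2.24 and 2.51 at control 7 dpa. With TCDD it was at 2.29 and 2.23 at 0 hpa, 2.58 and 2.53 at 6 hpa, and 4.15 and 5.0 at 7 dpa. Both TCDD 7 dpa arrays lay above all 10 others, at the 66.7th and 79.2th percentile of their arrays, and on the others plaua was at or under the 12.3th percentile. Among all probe sets the share with such a separation was not counted.

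In linear intensity plaua was 17.8 and 32.0 at TCDD 7 dpa and 4.69 to 5.99 elsewhere. TCDD 7 dpa, at 4.58 ± 0.60 (SD, n = 2), exceeded TCDD 0 hpa by 2.32 ± 0.25 and TCDD 6 hpa by 2.02. It exceeded control 7 dpa, at 2.38 ± 0.19, by 2.20 ± 0.25, a 4.59-fold ratio. In controls the 7 dpa and 0 hpa levels differed by −0.02 ± 0.25. The difference between the TCDD and the control response at 7 dpa was 2.33 ± 0.35. These standard errors pool the spread of all 6 groups. The SD of the other 5 groups was 0.002 to 0.19, so the errors understate the spread at TCDD 7 dpa. The low levels are not shown to be above background, so the size of the plaua differences is uncertain. For the same reason the other 5 groups, whose means ran from 2.26 to 2.55, have no readable order, and no step between neighbours among them was larger than its standard error of 0.25.

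**Figure D2:**
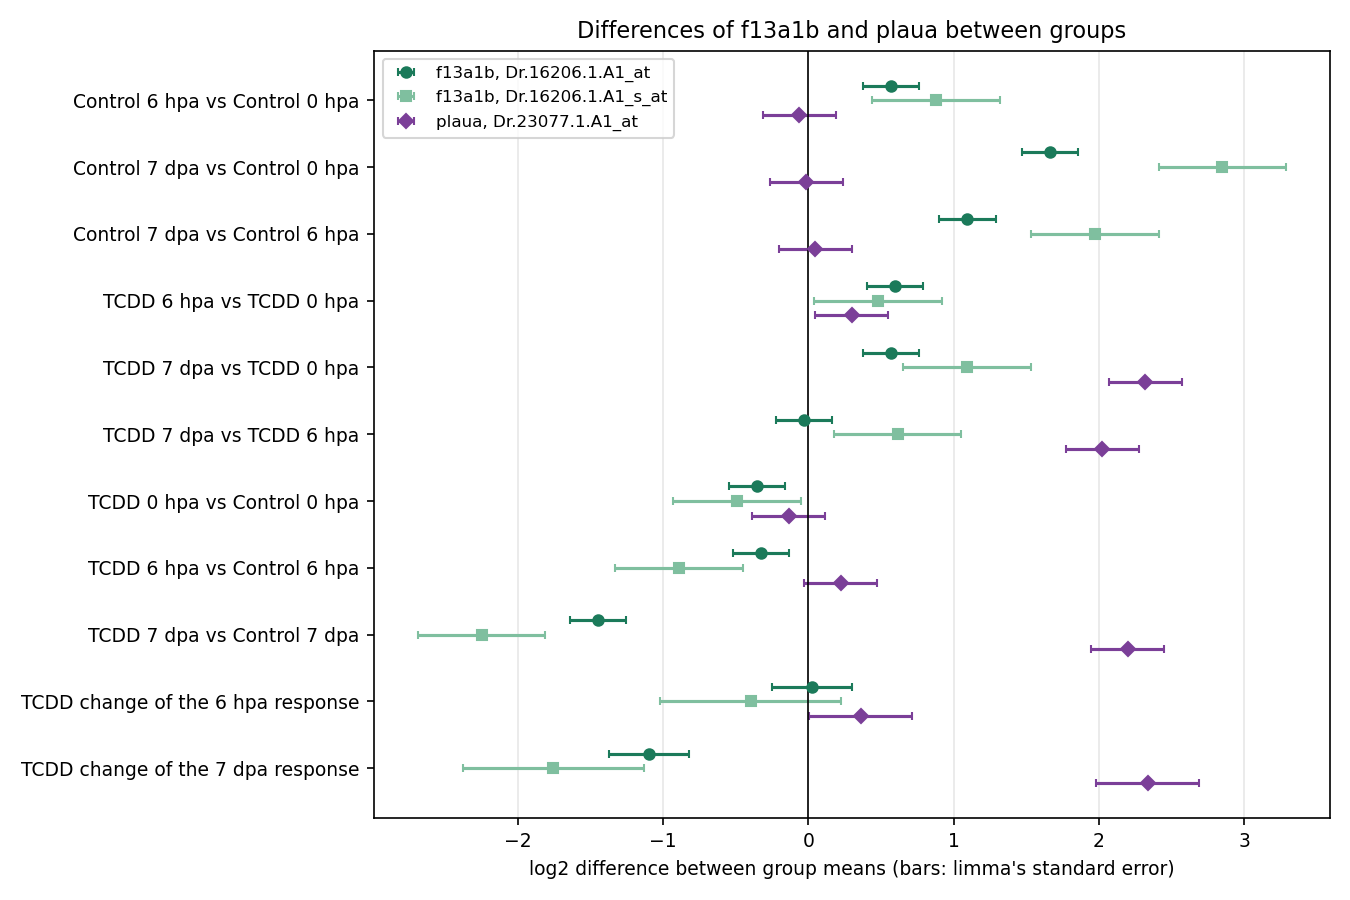
Log2 differences of the 2 brighter f13a1b probe sets and of plaua in the 11 comparisons of groups, with limma's standard error as bars. The f13a1b differences are positive after amputation and negative for TCDD 7 dpa against control 7 dpa (−1.45 and −2.25), where plaua is at 2.20.

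At 7 days the 2 brighter f13a1b probe sets and plaua therefore differed between TCDD and control hearts in opposite directions. On the 4 arrays of that stage both of these f13a1b probe sets were higher in both controls, and plaua was higher in both TCDD pools. The share of all probe sets that separate these arrays was not counted, so nothing is read from the separation. On the third f13a1b probe set the arrays overlapped (−0.19 ± 0.18). At 0 hpa TCDD against control was −0.35 for the first f13a1b probe set and −0.14 for plaua, and at 6 hpa −0.33 and 0.22. Over the 12 arrays plaua correlated at −0.13 with the first f13a1b probe set and at −0.04 with the second, as a description.

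In the fit over all probe sets, called at an adjusted p below 0.05, both brighter f13a1b probe sets passed for control 7 dpa against 0 hpa and against 6 hpa. The plaua probe set passed for TCDD 7 dpa against 0 hpa and against 6 hpa. For TCDD against control at 7 dpa the first f13a1b probe set and plaua passed, so 2 of 4, and neither interaction passed for any of the 4. Of all probe sets, 2.00% passed for control 7 dpa against 0 hpa, 3.79% for control 7 dpa against 6 hpa, 2.37% for TCDD 7 dpa against 0 hpa, 5.68% for TCDD 7 dpa against 6 hpa and 0.116% for TCDD 7 dpa against control 7 dpa, where leaving out single arrays moved the count of 18 probe sets to between 3 and 98. For the TCDD change of the response 0.00645% passed at 6 hpa and 0.00645% at 7 dpa. As these genes were chosen on the same values, nothing is read from their calls.

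The authors' deposited table of control 7 dpa against 4 other classes gave f13a1b a class mean of 382 against 146, a fold of 2.62, on the first probe set and 135 against 24.9, a fold of 5.44, on the second. The authors' deposited table has an adjusted p of 0.675 for each. In the authors' deposited table of control 0 hpa against the 6 hpa classes, the first f13a1b probe set was at 99.3 against 129 (adjusted p = 0.0154). The second was at 18.0 against 23.4 in that authors' deposited table (adjusted p = 0.676). In the authors' deposited table for TCDD 7 dpa, plaua had a class mean of 21.7 against 5.03, a fold of 4.32 (adjusted p = 0.518). These tables were normalized separately from the values used above. As f13a1b and plaua were chosen on values of the same arrays, nothing is read from these adjusted p values. Class means in the authors' deposited tables give the first f13a1b probe set a TCDD against control difference of −1.51 at 7 dpa and plaua one of 2.18.

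The rest of the clotting and fibrinolysis system was followed with a list of 64 genes. A probe set with its symbol was found for 27 of them, f13a1b and plaua included, which leaves 25 genes with 27 probe sets. Of these, 12 stayed below a log2 level of 3.5 on every array and 7 had a group mean of at least 5; the median over all probe sets and arrays was 3.35. The tissue factor genes f3a and f3b, vwf, thbd, the activator genes plat and plaub and the urokinase receptor gene plaur were not analysed here, as no probe set carried their symbol alone.

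Few of the 25 genes passed the test, and none did in a comparison of TCDD with control. For control 6 hpa against 0 hpa 1 fell and none rose (4% of the list, against 0.477% of all probe sets). For control 7 dpa 2 rose and none fell against 0 hpa, and 2 rose against 6 hpa (8% of the list each). Of all probe sets 2.00% and 3.79% passed in these comparisons. In TCDD fish 1 fell at 6 hpa (4%, against 1.88% of all probe sets). In these fish at 7 dpa 2 rose against 0 hpa (8%, against 2.37%) and 4 rose against 6 hpa (16%, against 5.68%). The list's median difference was between −0.07 and 0.08 in all 11 comparisons, and that of all probe sets between −0.04 and 0.06.

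For TCDD against control 0 of 25 passed at 0 hpa (0.0258% of all probe sets), 0 at 6 hpa (0.0129%) and 0 at 7 dpa (0.116%). By limma at an unadjusted p under 0.05 the whole array had 225, 421 and 615 probe sets in these comparisons, of which 4, 2 and 18 passed after adjustment, so the test makes few calls in them. Each unadjusted count is below a share of 0.05 of the 15502 probe sets, the share that chance alone would give. The small counts move when single arrays are left out. Without replicate 1 of TCDD 6 hpa, the list count for TCDD 7 dpa against 0 hpa was 5, when 683 probe sets of the array passed in place of 367, and that for TCDD 7 dpa against 6 hpa was 2, when 553 passed in place of 881. Without its replicate 2, these counts were 5 and 8, when 683 and 3002 probe sets passed. For TCDD 6 hpa against control 6 hpa 3 list genes then passed, when 762 probe sets did in place of 2. On leaving out each array in turn, the 74 calls over the whole array for control 6 hpa against 0 hpa became 2 to 309. The 291 for TCDD 6 hpa against 0 hpa became 0 to 2424.

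**Figure D3:**
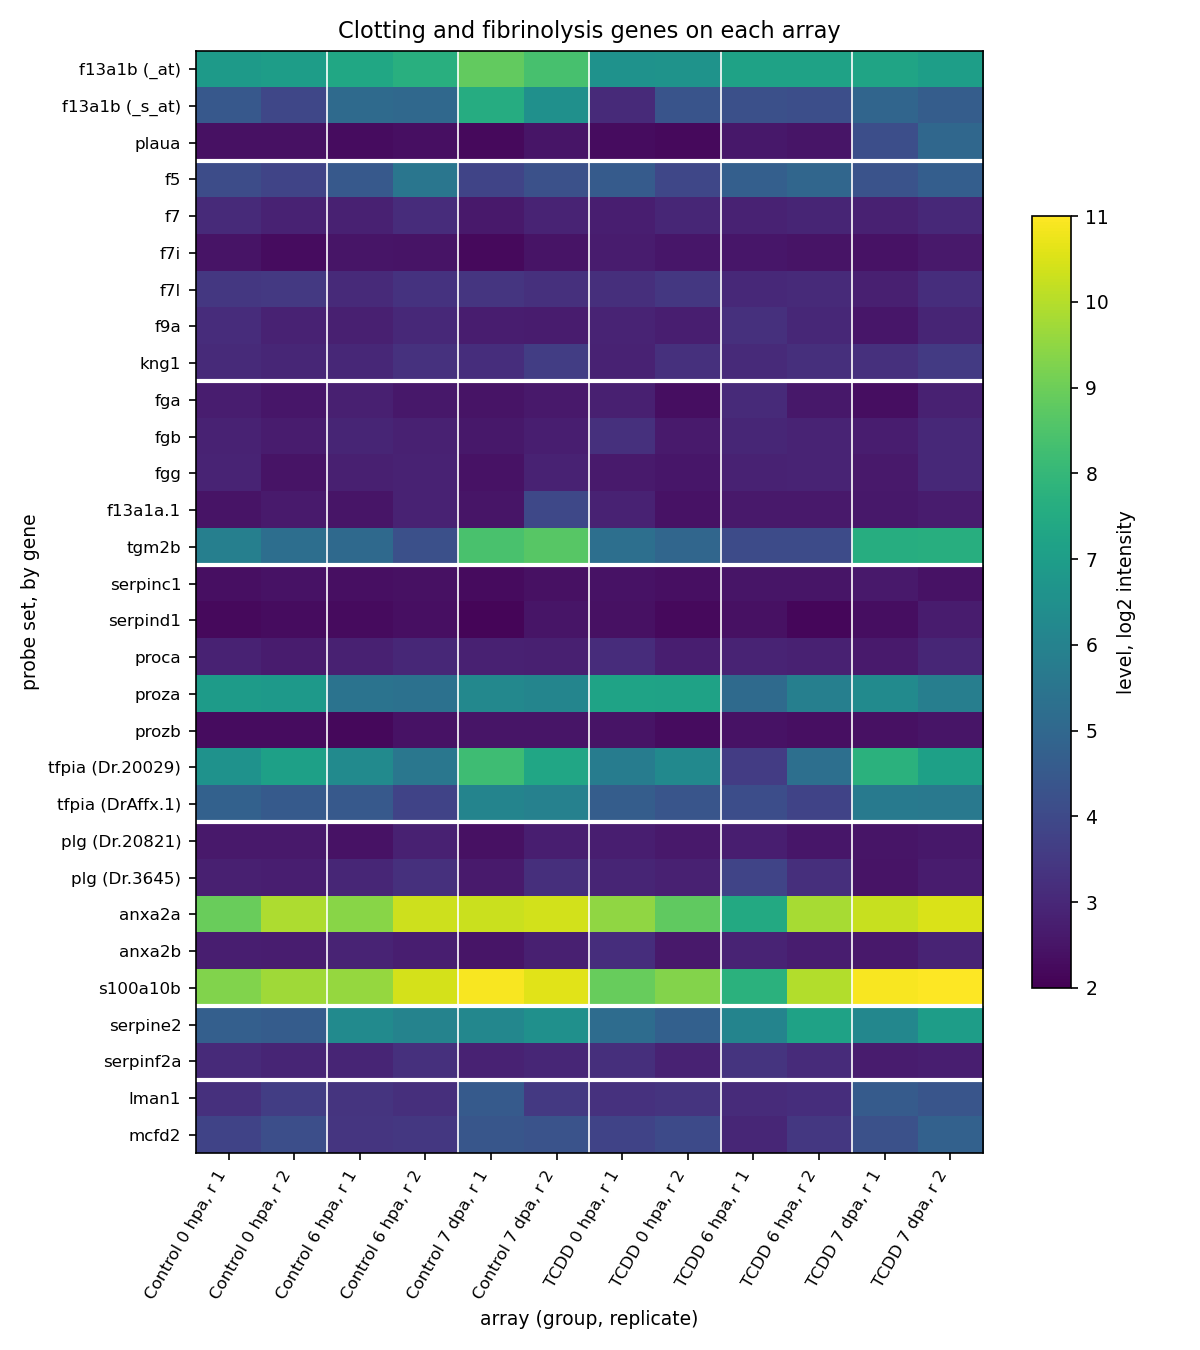
Log2 intensity of f13a1b (2 probe sets), plaua and the 27 probe sets of the other 25 measured clotting and fibrinolysis genes on each of the 12 arrays, in the order coagulation factors, fibrin and its crosslinking, anticoagulants, plasminogen and its activation, inhibitors of fibrinolysis, and transport of clotting factors (white lines). The rows of tgm2b and one tfpia probe set are higher on the 4 arrays of 7 dpa, those of fga, fgb and fgg stay between 2.33 and 3.24, and plaua stands out at TCDD 7 dpa.

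Among coagulation factors 6 of 14 genes were measured and none passed in any comparison. Chosen after its values were seen, f5, for the cofactor that speeds thrombin formation, was at 4.10 and 3.85 in unamputated controls and 4.53 and 5.54 at control 6 hpa. The difference was 1.06 ± 0.35 (adjusted p = 0.289). The serine protease genes f7, f7i and f9a stayed below 3.5 on every array.

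Of fibrin and its crosslinking enzymes 5 genes other than f13a1b were measured. The fibrinogen chain genes fga, fgb and fgg, whose products come from the liver in vertebrates, were at 2.33 to 3.24 on every array. The paralog of f13a1b, annotated as f13a1a.1, was at 2.43 to 2.86 on 11 arrays and at 3.94 on control 7 dpa replicate 2, where replicate 1 was at 2.52. Its 7 dpa difference in controls was 0.66 ± 0.39 (adjusted p = 0.615), and the TCDD 7 dpa and 0 hpa means were both 2.64.

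The transglutaminase gene tgm2b, whose product crosslinks proteins in tissues by the same chemistry as factor XIII, had the largest differences that passed. It was at 5.88 and 5.27 at control 0 hpa, 5.07 and 4.19 at control 6 hpa and 8.40 and 8.65 at control 7 dpa. In TCDD fish it was at 5.29 and 4.96, 4.05 and 4.05, and 7.60 and 7.63. All 4 arrays of 7 dpa lay above the 8 others, and the TCDD arrays of that stage lay below both controls. Among all probe sets the share with such separations was not counted.

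From 0 hpa to 7 dpa tgm2b rose by 2.95 ± 0.30 in controls (adjusted p = 0.00232) and by 2.49 ± 0.30 in TCDD fish (adjusted p = 0.00383). At 7 dpa TCDD hearts were at −0.91 ± 0.30 against controls (adjusted p = 0.832), and the TCDD change of its response was −0.46 ± 0.43 (adjusted p = 1.00). The call in controls held on leaving out each array, and that in TCDD fish was lost without TCDD 0 hpa replicate 2 (limma's adjusted p = 0.0501). The f13a1b differences in the same TCDD arrays were 0.57 and 1.09. The responses of both genes were not tested against each other. The list that holds tgm2b was chosen with earlier results of these data known, which limits its p-values.

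**Figure D4:**
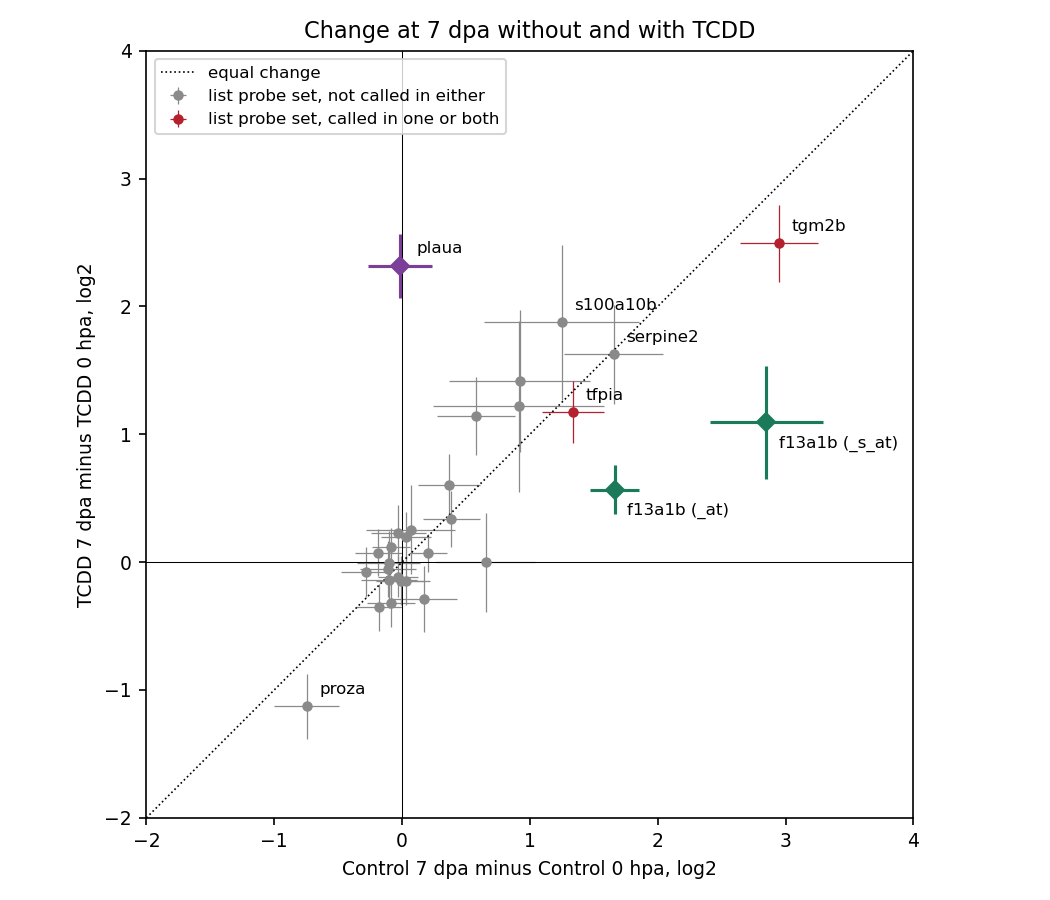
Log2 difference between 7 dpa and 0 hpa in control fish (horizontal) and in TCDD fish (vertical) for f13a1b, plaua and the other clotting and fibrinolysis probe sets, with standard errors as bars and a dotted line where the changes are equal. The f13a1b points (1.66 and 0.57, 2.85 and 1.09) lie below the line, plaua (−0.02 and 2.32) lies above it, and tgm2b (2.95 and 2.49) lies near it.

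Of the anticoagulants 6 of 9 genes were measured. Antithrombin (serpinc1), heparin cofactor (serpind1), proca and prozb stayed below 3.5 on every array. The gene proza, for a form of protein Z, a cofactor in the inhibition of activated factor X, was at 6.92 and 6.86 at control 0 hpa and 5.42 and 5.36 at control 6 hpa. It fell by 1.50 ± 0.25 there (adjusted p = 0.0491), and by 1.71 from TCDD 0 hpa, at 7.22 and 7.18, to TCDD 6 hpa, at 5.10 and 5.88 (adjusted p = 0.0222). The call in controls was lost on leaving out any of the 10 arrays outside TCDD 6 hpa (adjusted p from 0.0142 to 0.284 over all 12). That in TCDD fish was lost on leaving out either array of control 0 hpa or TCDD 0 hpa (0.00119 to 0.156 over all 12). At 7 dpa proza was at −0.75 in controls (adjusted p = 0.228) and −1.13 in TCDD fish (adjusted p = 0.0596) against 0 hpa.

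The gene tfpia, for tissue factor pathway inhibitor, which blocks the start of clotting, had 2 probe sets. On one it was at 4.78 and 4.55 at control 0 hpa and 6.06 and 5.95 at control 7 dpa. In TCDD fish it was at 4.66 and 4.36 at 0 hpa and 5.72 and 5.64 at 7 dpa. It rose by 1.34 ± 0.24 in controls (adjusted p = 0.0292) and by 1.17 ± 0.24 in TCDD fish (adjusted p = 0.0447). The call in controls was lost on leaving out 6 of the 12 arrays in turn (adjusted p up to 0.229) and that in TCDD fish on leaving out 8 of 12 (up to 0.268). On its other probe set the tfpia differences were 0.92 ± 0.55 (adjusted p = 0.636) and 1.42 ± 0.55 (adjusted p = 0.309). Replicate 1 of TCDD 6 hpa had the lowest value of that probe set, 3.60.

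Of plasminogen and the proteins that act on it, 4 genes other than plaua were measured, and none passed. Both probe sets of plg, the plasminogen gene, were low, at 2.42 to 2.82 on one and 2.47 to 3.83 on the other. The genes s100a10b and anxa2a, whose mammalian counterparts form a complex that binds plasminogen at the cell surface, had levels of 7.47 or more on every array. The s100a10b level was 9.28 and 9.72 at control 0 hpa, 10.90 and 10.60 at control 7 dpa, and 10.90 and 11.07 at TCDD 7 dpa. Its 7 dpa difference was 1.25 ± 0.61 in controls (adjusted p = 0.471) and 1.88 ± 0.61 in TCDD fish (adjusted p = 0.195). For anxa2a these differences were 0.91 ± 0.67 (adjusted p = 0.764) and 1.22 ± 0.67 (adjusted p = 0.555). Replicate 1 of TCDD 6 hpa was the lowest array of both, at 7.74 and 7.47.

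Of the inhibitors of fibrinolysis 2 of 7 genes were measured, serpinf2a, below 3.5 on every array, and serpine2. The product of serpine2, protease nexin, inhibits thrombin, urokinase and plasmin. It was at 4.73 and 4.63 at control 0 hpa, 6.29 and 6.04 at control 6 hpa and 6.16 and 6.51 at control 7 dpa. In TCDD fish it was at 5.17 and 4.77, 6.05 and 7.20, and 6.18 and 7.01. All 8 amputated arrays lay above the 4 unamputated ones, by differences of 1.49 and 1.66 in controls and 1.66 and 1.63 in TCDD fish (± 0.39 each). None of these passed the test, with adjusted p values of 0.166, 0.0776, 0.0708 and 0.0765. The share of all probe sets that separate amputated from unamputated arrays was not counted.

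The cargo receptor genes lman1 and mcfd2, whose human products carry factors V and VIII out of the endoplasmic reticulum, passed for TCDD 7 dpa against TCDD 6 hpa and in none of the other 10 comparisons. The rises were 1.33 ± 0.31 (adjusted p = 0.0402) and 1.29 ± 0.24 (adjusted p = 0.0177). The lman1 call was lost on leaving out 9 of the 12 arrays in turn, and the mcfd2 call without TCDD 6 hpa replicate 1 or TCDD 7 dpa replicate 2 (adjusted p = 0.0832 and 0.0888). For lman1 the difference between 7 dpa and 0 hpa was 0.58 in controls (adjusted p = 0.544) and 1.15 in TCDD fish (adjusted p = 0.109). For mcfd2 the same differences were 0.37 and 0.60 (adjusted p = 0.701 and 0.332). No gene of the thrombin receptor list, of 5, was measured.

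Markers of other cells moved on the same arrays. Of 10 macrophage genes 6 were measured: csf1ra, marco, c1qc, ctss2.1, grna and cd74a. Their summed intensity was 577 and 627 at control 0 hpa, 623 and 732 at control 6 hpa and 5779 and 3394 at control 7 dpa. In TCDD fish it was 336 and 1042 at 0 hpa, 165 and 614 at 6 hpa, and 2006 and 1175 at 7 dpa. The control 7 dpa pools, which had the most f13a1b, had the highest sums, with replicate 1 above replicate 2 in both measures. The TCDD 7 dpa sums were above those of control 6 hpa. The first f13a1b probe set was lower there, at 7.27 and 7.06 against 7.37 and 7.67. Most of the control 7 dpa sums was cd74a, at 11.88 and 11.28, whose difference from 0 hpa was 2.57 ± 0.78 (limma's adjusted p = 0.1755).

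From 0 hpa to 7 dpa 4 of the 6 macrophage genes rose in controls, with a median difference of 3.97, and 1 of 6 in TCDD fish, with a median of 2.22. Of all probe sets 2.00% and 2.37% passed in these comparisons. As the macrophage list was chosen with earlier results of these data known, its counts are no independent test. For the TCDD change of the 7 dpa response the median was −1.67 and 0 of 6 passed (0.00645% of all probe sets). For TCDD against control at 7 dpa the difference was negative for 5 of 6 (median −1.19), of which 0 passed (0.116% of all probe sets). The defining marker csf1ra stayed at 2.91 to 3.56 on all arrays. No marker was listed at 0, which does not show detection. The part of these cells in the f13a1b levels was not tested.

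Thrombocytes are the fish counterpart of platelets. Of their 7 listed genes itga2b, gp1bb and thbs1b were measured, and their summed intensity was 31.1 and 23.0 at control 7 dpa, 60.3 and 60.4 at TCDD 7 dpa and 21.2 to 65.6 on the other arrays. The gene itga2b, which defines these cells, was at 2.50 to 3.21 on all arrays, with the highest value on control 7 dpa replicate 1. The part of thrombocytes in the f13a1b levels was not tested. Of 7 liver genes 5 were measured, with sums of 57.8 to 560. Most of that sum was rbp4, at 4.35 to 9.06, and the other 4 were at 2.35 to 3.85 on every array.

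At TCDD 7 dpa, the group with the most plaua, epidermal markers were high. All 8 listed genes were measured: krt4, krt5, krt91, krt17, epcam, cldni, evpla and ppl. Their summed intensity was 6662 and 6164 at TCDD 7 dpa and 834 and 3397 at control 7 dpa. It was 394 and 370 at control 0 hpa, 272 and 112 at control 6 hpa, 134 and 135 at TCDD 0 hpa, and 80.2 and 127 at TCDD 6 hpa.

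The epidermal list was chosen with earlier results of these data known, so the counts here are no independent test. From TCDD 0 hpa to TCDD 7 dpa 5 of the 8 epidermal genes rose, with a median difference of 4.80 (2.37% of all probe sets passed). From control 0 hpa to control 7 dpa 1 of 8 rose, krt4, with a median of 1.68 (2.00% of all probe sets passed). For TCDD against control at 7 dpa the difference was positive for 8 of 8 (median 2.68, krt4 at 0.07), of which 0 passed (0.116% of all probe sets). On control 7 dpa replicate 2 the epidermal sum was 3397, with krt5 at 9.60, and plaua was at 2.51, its level on that array being at the 7.97th percentile. Between the TCDD 7 dpa arrays the larger sum and the larger plaua level were on different replicates. There krt4, krt17 and epcam were higher on replicate 2, as plaua was, and krt5, krt91, cldni, evpla and ppl on replicate 1. Between the control 7 dpa arrays the larger sum and the larger plaua level (2.51 against 2.24) were both on replicate 2. These plaua levels are not shown to be above background. The gene evpla was at 3.11 and 2.79 at TCDD 7 dpa and 2.15 to 2.46 elsewhere. None of the 8 was listed at 0, which does not show detection. The part of epidermal cells in the plaua level was not tested.

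**Figure D5:**
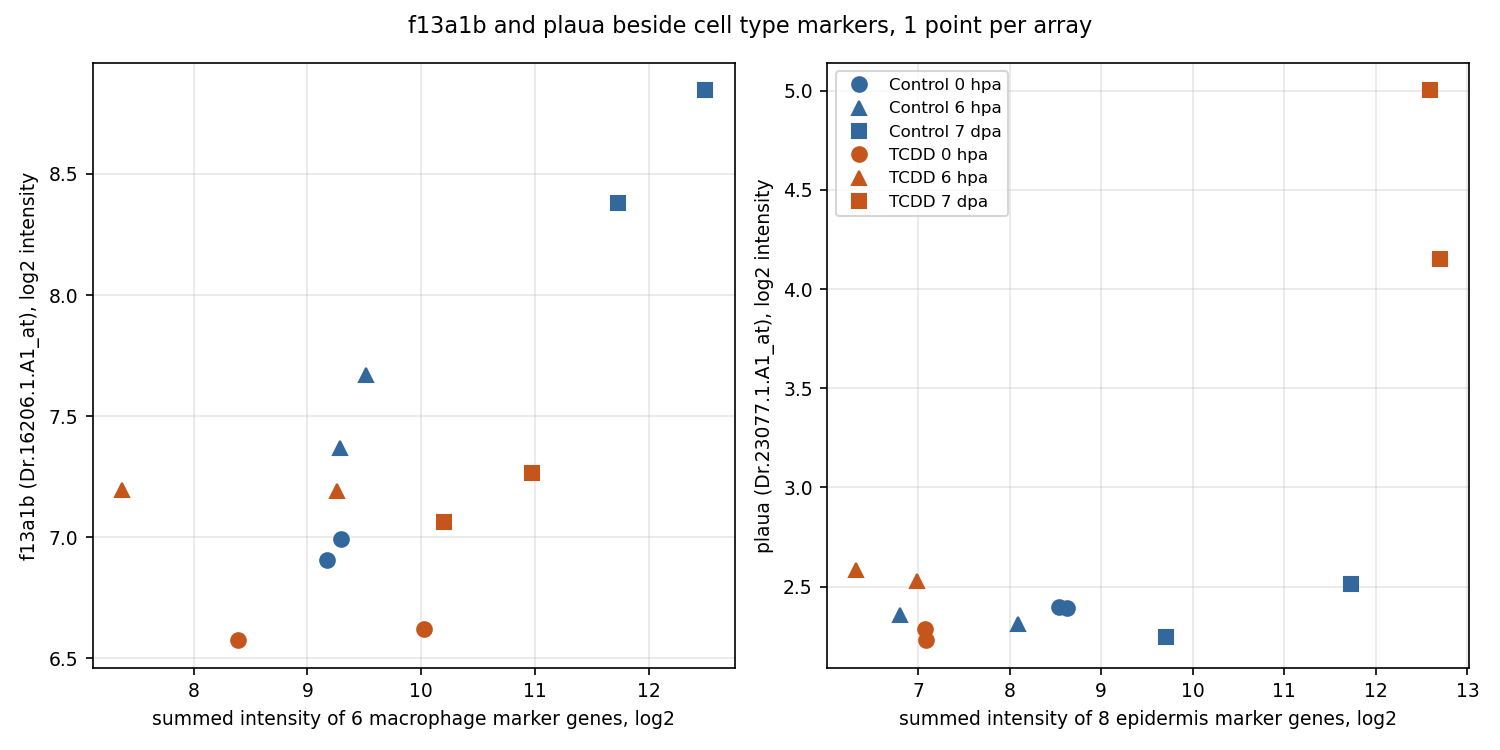
Left, log2 level of f13a1b (first probe set) against the log2 summed intensity of 6 macrophage marker genes; right, log2 level of plaua against that of 8 epidermal marker genes; 1 point per array (control blue, TCDD orange, circles 0 hpa, triangles 6 hpa, squares 7 dpa). The control 7 dpa arrays are highest on both axes at left, and at right control 7 dpa replicate 2 has a high epidermal sum with plaua at 2.51.

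The genes most like f13a1b and plaua were sought among 2404 genes whose group means spanned at least 1 log2 unit, by Pearson correlation over the 12 arrays. For f13a1b 1 gene exceeded 0.9, and for plaua 17 did. These correlations are a description, since the arrays share groups and a single group can carry them.

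For f13a1b the 6 closest were plcg2 (0.90), a phospholipase of immune cell signalling; igl1c1 (0.89), an immunoglobulin light chain gene; hp (0.89), for the haemoglobin-binding haptoglobin; sfrp1a (0.89), a secreted Wnt modulator; gmfg (0.89), an actin regulator of blood cells; and uhrf1 (0.89), which maintains DNA methylation. Like f13a1b, all 6 had their highest mean at control 7 dpa, which their choice by correlation makes likely. From 0 hpa to 7 dpa hp differed by 3.30 in controls and 1.26 in TCDD fish, gmfg by 2.70 and 1.62, and sfrp1a by 1.60 and 0.28. By Spearman correlation plcg2 (0.92) and uhrf1 (0.89) ranked 1 and 2 among the 2404 genes. The others ranked lower: hp at 15 (0.79), igl1c1 at 47 (0.73), gmfg at 54 (0.71) and sfrp1a at 224.5 (0.57).

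For plaua the 6 closest were the chemokine gene ccl27a (0.99), the calcium-binding protein gene icn2 (0.95), the annexin gene anxa1b (0.95), elf3 (0.95), for a transcription factor of epithelia, the keratin gene krt93 (0.95) and gpa33a (0.95), for a membrane glycoprotein. All had their highest mean at TCDD 7 dpa, which their choice by correlation makes likely. The ccl27a mean was 6.87 there and 2.34 to 2.83 in the other groups. From TCDD 0 hpa to TCDD 7 dpa ccl27a differed by 4.53, icn2 by 4.90, anxa1b by 4.06 and elf3 by 1.32. In controls the same differences were 0.23, 0.42, 0.71 and 0.13. The Spearman correlation was 0.87 for ccl27a, 0.88 for icn2, 0.79 for elf3, 0.75 for krt93, 0.62 for gpa33a and 0.55 for anxa1b.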

How the data were processed

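RNA of 12 pools of zebrafish ventricle apex was hybridised to Affymetrix arrays, 2 per group. The authors deposited linear intensity values, 1 for each probe set on each array; per the submitters' processing notes RMA was used, with no version named in the sources used here. The authors' own comparison tables hold a fold, which is a ratio of class means, and a permutation p-value, per the file headers, from separate normalization runs. The log2 of the deposited intensities was taken here.

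All 15502 probe sets other than 115 Affymetrix controls entered the tests, dim ones included. Gene symbols from the platform annotation in GEO, 1 of them updated through RefSeq's gene table, gave 1 symbol to 10795 of them, several to 135 and none to 4572, and 10711 were found in the RefSeq table. A model of 6 group means was fitted with limma 3.58.1 (lmFit and eBayes) in R 4.3.3. All groups thus share 1 spread estimate, with 6 residual and 2.87 prior degrees of freedom. The 11 comparisons were adjusted by Benjamini-Hochberg over all probe sets within each, and called below 0.05. A gene counts as called if any of its probe sets is; list medians use the brightest probe set per gene. The median standard error was 0.243. With 2 arrays against 2, the smallest p of an exact permutation test is 0.333. The fit was tested on simulated data.

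The 2 genes and all lists were chosen with earlier results of these data known. Named list genes are those called in any comparison and 17 fixed ones, of which 1 is not reported here; an older symbol, f13a1a, was matched to f13a1a.1 after the files were read. Macrophage, neutrophil, thrombocyte, liver, endothelial, epicardial and fibroblast, epidermal, cardiac muscle and red cell markers were summed as linear intensity. No sequences or coordinates are given. Alternatives were quantile normalization, median centring, a replicate block, trend and robust settings, array weights, a fit of the compared groups alone, leaving out the 25% dimmest probe sets, other probe sets, Spearman correlation, the authors' class means (added after seeing the data) and leaving out each array.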

Additional observations from a re-analysis of the deposited data

How the results depend on the processing

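The differences given with a range in this paragraph kept their sign under quantile normalization, median centring and on leaving out each array. Except for the TCDD change of the response, their groups had no overlapping arrays, so leaving out an array could not turn the sign. On the first f13a1b probe set, leaving out each array gave 1.43 to 1.90 for control 7 dpa against 0 hpa, −1.68 to −1.22 for TCDD against control at 7 dpa and −1.33 to −0.86 for the TCDD change of the response. On the second the ranges were 2.31 to 3.39, −2.79 to −1.71 and −2.38 to −1.14. For plaua they were 1.89 to 2.74 for TCDD 7 dpa against 0 hpa, 1.77 to 2.62 against control 7 dpa and 1.91 to 2.76 for the change of the response. The choice of f13a1b probe set mattered more: in place of 1.66, −1.45 and −1.10 the second gave 2.85, −2.25 and −1.76 and the third 0.32, −0.19 and −0.18.

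Counts of called list genes rest on few genes. For control 6 hpa against 0 hpa the count of 1 became 0 with median centring, the replicate block, trend and robust settings or the compared groups alone, and 2 with array weights (0 to 2 on leaving out an array). For control 7 dpa the count of 2 against 0 hpa became 1 with trend and robust settings (1 to 3), and that against 6 hpa 1 with the compared groups alone (2 to 4). For TCDD 6 hpa against 0 hpa the count of 1 became 2 with quantile normalization and 0 with trend and robust settings, array weights or the compared groups alone (0 to 5). For TCDD 7 dpa against 0 hpa the count of 2 became 1 with centring or with trend and robust settings and 4 with array weights or the compared groups alone (0 to 5). Against TCDD 6 hpa the count of 4 became 2 with array weights and 1 with the compared groups alone (2 to 8). For TCDD 6 hpa against control 6 hpa it was 0 to 3. The cause was not tested. Nothing in the labels says that replicate numbers pair the pools. Deviations of same-numbered arrays correlated at −0.38 to 0.56 over 15 group pairs, 8 of them over 0.1. The highest was that of control 7 dpa with TCDD 7 dpa, whose replicate 2 arrays also had the hybridisation control BioB-5 at 8.20 and 9.40 (5.68 to 6.77 elsewhere). With the replicate block the list count for control 7 dpa against 6 hpa was 3. The f13a1b difference of −1.45 at 7 dpa cannot move under this block, since each group holds both replicate numbers. The lack of detection calls limits every low level. Median centring moved the median of all probe sets for TCDD 6 hpa against 0 hpa from 0.06 to −0.09 and that for TCDD 7 dpa against 6 hpa from −0.04 to 0.09, and the f13a1b difference of the latter from −0.03 to 0.10.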

Other observations

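Of the thrombocyte genes 2 passed in a comparison with 0 hpa, 1 at TCDD 6 hpa and 1 at TCDD 7 dpa. Of all probe sets 1.88% and 2.37% passed in these comparisons. All marker lists of this section were chosen with earlier results of these data known, so their counts are no independent test. The gene gp1bb, for a subunit of the receptor by which platelets bind von Willebrand factor, was at 5.39 and 5.46 at TCDD 6 hpa, 4.67 and 3.30 at control 6 hpa and 2.35 to 3.07 at the other stages. It rose by 2.56 ± 0.39 from TCDD 0 hpa to TCDD 6 hpa (adjusted p = 0.0232) and differed by 1.05 ± 0.39 in controls (adjusted p = 0.365). The thrombospondin gene thbs1b was at 5.61 and 5.55 at TCDD 7 dpa and 3.88 and 3.25 at control 7 dpa. It rose by 2.28 ± 0.33 from TCDD 0 hpa (adjusted p = 0.00891) and was at 2.01 ± 0.33 against control 7 dpa (adjusted p = 0.092).

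Of 5 measured red cell genes 4 rose at TCDD 6 hpa against 0 hpa, with a median difference of 2.97, and 0 passed in controls, where the median was 2.70. Of all probe sets 1.88% and 0.477% passed in these comparisons. Neutrophil sums were 937 and 2871 at control 6 hpa, 344 and 2928 at TCDD 6 hpa and 42.9 to 574 at the other stages. Of the 3 neutrophil genes mmp13a carried most of the 6 hpa sums. The gene lyz was at 6.30 and 9.31 at control 6 hpa, 4.71 and 9.40 at TCDD 6 hpa and 3.91 to 7.50 at the other stages. In contrast, mpx was at 2.42 to 2.92 on the 6 control arrays and at 3.77 to 8.11 on the 6 TCDD arrays. Its probe set carries the same cluster number in its name as that of cyp1a. Whether this mpx signal comes from neutrophils was not tested. Epicardial and fibroblast sums were 3308 and 3927 at control 7 dpa, 2824 and 2589 at TCDD 7 dpa and 120 to 493 elsewhere. Endothelial sums were 72.2 to 415.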
